A study of Mus musculus with 6 samples.

Results

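The 10 genes described here belong to the imprinted clusters of distal mouse chromosome 7. H19 and Igf2 form one cluster, and Ascl2, Tssc4, Kcnq1, Kcnq1ot1, Cdkn1c, Slc22a18, Phlda2 and Nap1l4 belong to the neighbouring cluster controlled from Kcnq1ot1. They were chosen by name, and all 10 were found among the 27179 genes of the count table. Gene expression was read from oligo(dT) selected RNA of mouse embryonic stem cells, an undifferentiated line of ES-E14TG2a background. The cells were cultured on gelatin in 2i + Lif medium, which contains an inhibitor of GSK3, an inhibitor of MEK and leukemia inhibitory factor. Both groups carried FLAG-tagged Trim71, a protein of the TRIM-NHL family that binds mRNA. In 3 libraries Trim71 had the R783H change, which the series links to hydrocephalus, and in 3 libraries it was wild type (WT). The labels do not say whether replicates A, B and C were separate clones, cultures or library preparations, so the tests measure only the spread between these libraries.

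An imprinted gene is expressed mainly from the copy inherited from one parent. In the H19/Igf2 cluster, the insulator protein CTCF binds the unmethylated maternal control region, so that shared enhancers drive the noncoding RNA H19 on the maternal chromosome and the growth factor gene Igf2 on the paternal one. In the neighbouring cluster, the long noncoding RNA Kcnq1ot1 is transcribed from the paternal copy and silences the protein-coding genes around it, several of them only in the placenta. Disturbed imprinting of the human counterpart of this region causes Beckwith-Wiedemann and Silver-Russell syndromes. The counts here sum both parental copies, so no allele could be read from them.

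Sequences are shown first for the transcripts that the results turn on. They come from RefSeq, build GRCm38.p6, which is the assembly called mm10 in the submitters' processing notes. H19 is the host of miR-675, whose 2 arms are given with bases 2 to 8, the seed, in capitals. Both lie on the minus strand within the H19 transcript, at chr7:142577112-142577133 for the 5p arm and chr7:142577078-142577099 for the 3p arm.
mmu-miR-675-5p: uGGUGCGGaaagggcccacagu
mmu-miR-675-3p: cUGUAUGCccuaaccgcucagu
The seeds of the arms differ, and the row of Mir675 had 0 counts in every library. Because the RNA was oligo(dT) selected, these counts give no level of the mature microRNA.

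Promoter windows of 300 bases were found for 6 of the 10 genes. Those of Kcnq1ot1, Ascl2 and Phlda2 are printed because these 3 genes had the largest changes that passed the test, as given with their values further on. Each window surrounds an annotated start on the minus strand, most of it upstream, and the start used for Phlda2 lies inside the RefSeq span of the gene. Capitals mark CCAAT, the CCAAT box, and TATAAA, the TATA box, on either strand, so that ATTGG is also marked.
Kcnq1ot1 promoter, chr7:143296498-143296797: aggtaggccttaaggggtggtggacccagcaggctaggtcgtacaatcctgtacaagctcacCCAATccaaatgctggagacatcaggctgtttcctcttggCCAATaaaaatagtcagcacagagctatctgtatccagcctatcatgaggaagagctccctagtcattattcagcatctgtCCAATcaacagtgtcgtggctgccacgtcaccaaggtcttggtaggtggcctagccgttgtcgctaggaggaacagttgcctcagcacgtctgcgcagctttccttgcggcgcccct
Ascl2 promoter, chr7:142969215-142969514: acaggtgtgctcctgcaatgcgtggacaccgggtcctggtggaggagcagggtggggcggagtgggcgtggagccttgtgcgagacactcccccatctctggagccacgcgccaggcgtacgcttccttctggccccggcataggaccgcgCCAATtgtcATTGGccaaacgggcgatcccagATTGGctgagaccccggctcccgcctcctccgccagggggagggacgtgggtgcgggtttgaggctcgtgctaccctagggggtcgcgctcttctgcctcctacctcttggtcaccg
Phlda2 promoter, chr7:143502475-143502774: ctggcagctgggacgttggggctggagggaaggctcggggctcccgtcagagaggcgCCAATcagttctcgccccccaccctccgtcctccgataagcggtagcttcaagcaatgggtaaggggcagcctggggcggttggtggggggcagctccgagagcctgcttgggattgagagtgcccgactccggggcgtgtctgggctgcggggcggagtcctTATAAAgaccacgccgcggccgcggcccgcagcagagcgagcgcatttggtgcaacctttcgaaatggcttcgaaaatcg
The Kcnq1ot1 and Ascl2 windows each held 3 CCAAT boxes, a number reached by 3.37% of 32817 RefSeq windows of this length, whereas 37.4% held at least 1. In the Phlda2 window there were 1 CCAAT box and 1 TATA box, the latter present in 13.6% of windows. No other motif searched for matched in these 3 windows, on either strand. Those were TGCCGC, the ZFP57 motif (11.6% of windows), GCCATNTT, a YY1 core (6.04%), and a CTCF core (0.0366%). No 2 of the marked motifs overlapped. CpG pairs numbered 9 in the Kcnq1ot1 window, 23 in that of Ascl2 and 26 in that of Phlda2, where the median window had 7. A match is only a description of the letters in the window.

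Library totals ran from 27807385 to 29079670 counts in R783H and from 20894277 to 25174121 in WT. Values are CPM, counts scaled to library size and a TMM factor. A gene was called where edgeR's quasi-likelihood fit gave an adjusted p under 0.05 over all 14199 tested genes, and fold changes are log2 of R783H over WT. R783H B stood furthest from its group: a chi-square per degree of freedom of 11.3 and 12.3 separated it from R783H A and C, and the other pairs within a group lay between 1.97 and 4.39. Trim71 mRNA was at 144 ± 12.8 CPM in the R783H libraries and at 140.5 ± 16.4 CPM in WT (SD, n = 3 each), with overlapping groups and a log2 fold change of 0.03 (SE 0.08, edgeR adjusted p 0.743). With an offset for transcript length and GC content, Trim71 was at -0.28 and was called (edgeR, adjusted p 0.00208). Counts per gene do not show the R783H change itself.

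Of the 10 genes, 9 had enough counts to be tested, and 7 of them were called. H19, Ascl2 and Kcnq1ot1 rose in R783H, and Tssc4, Cdkn1c, Phlda2 and Nap1l4 fell. Igf2 and Slc22a18 were not called, and Kcnq1 was close to 0. Of all tested genes, 64.5% were called, 33.5% higher and 30.9% lower, so 7 of 9 is to be read against a majority of genes. Of these 9, 3 genes, Ascl2, Kcnq1ot1 and Phlda2, were called with at least a 2-fold change, where 9.08% of all tested genes were. That share was not split by abundance. Kcnq1ot1, at 1.02 on the log2 scale, was at 0.58 with the length and GC offset and 0.81 without R783H A. Ascl2, at 1.10, was at 0.82 without WT A. Phlda2 stayed between -1.84 and -1.50 in every alternative setting. The CPM ranges of the groups did not overlap for the same 7 genes that were called, and did not overlap for 68.1% of all tested genes. The median log2 fold change of the 9 genes was -0.18, against 0.03 for all tested genes.

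Most of these genes were lowly expressed. Of the 9 tested genes, 6 averaged under 5 CPM, and 4 of these 6 were called, whereas 47.7% of all tested genes under 5 CPM were called. The genes were also sorted by the expressed copy that textbooks give, although several are silenced on the other copy only in the placenta. Of those listed as maternal, 2 rose (H19 and Ascl2) and 4 fell (Tssc4, Cdkn1c, Phlda2 and Nap1l4). Slc22a18 was not called and Kcnq1 was not tested. Of the pair listed as paternal, Kcnq1ot1 rose and Igf2 was not called. Whether each gene was expressed from a single copy in these cells was not measured. In bulk RNA, fewer expressing cells and less RNA per cell cannot be told apart, and this holds for every gene described.

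**Figure D1:**
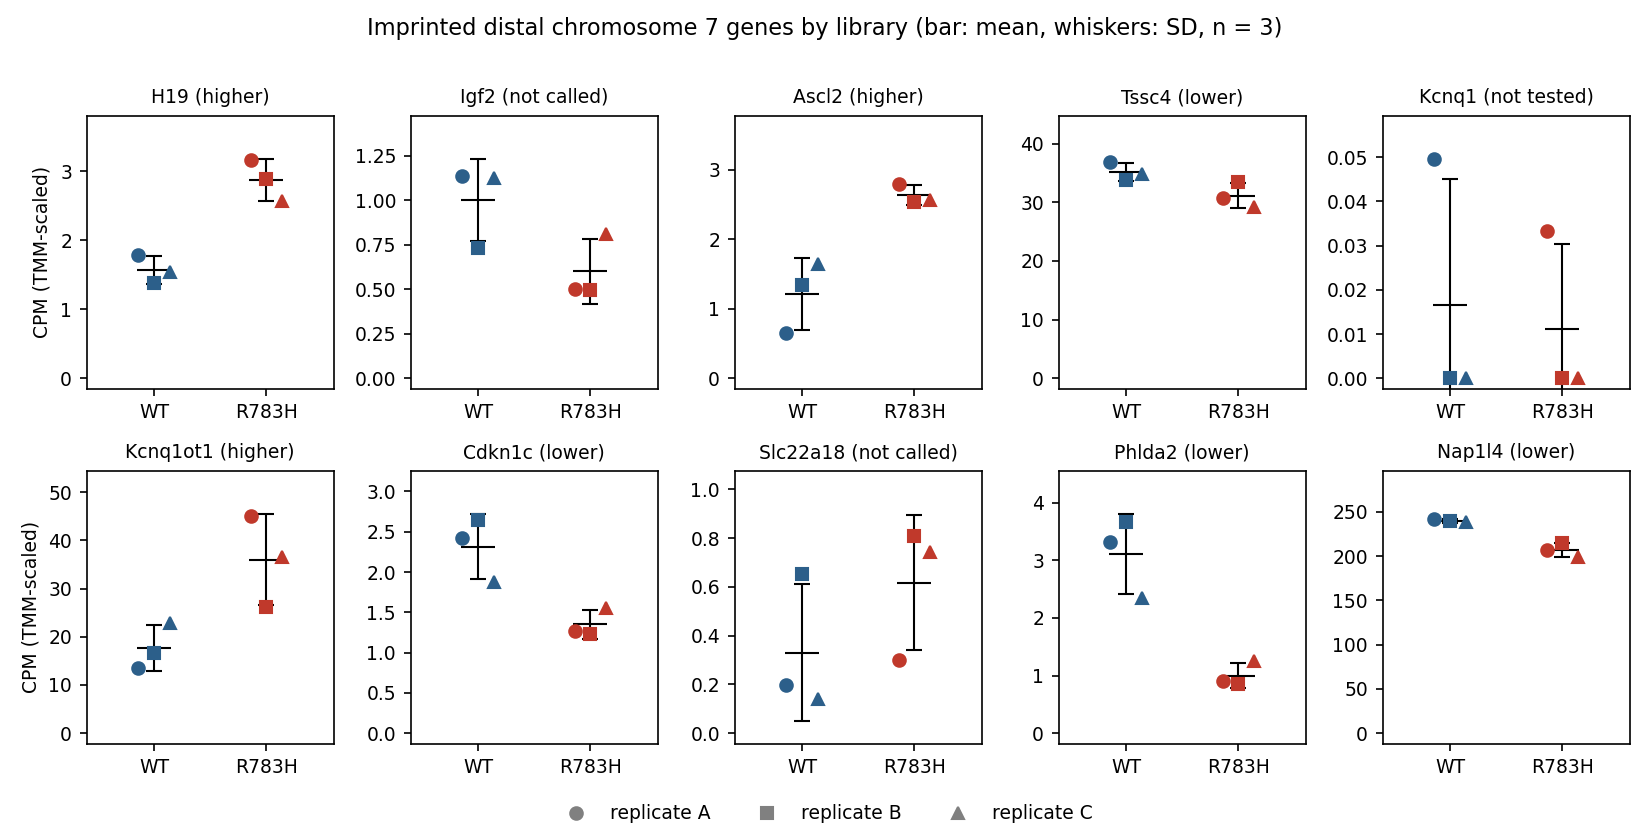
TMM-scaled CPM of the 10 genes in each of the 6 libraries, 1 panel per gene with its own axis from 0. Points are libraries, horizontal bars are group means and whiskers are SD (n = 3). The groups are separated for H19, Ascl2, Kcnq1ot1, Tssc4, Cdkn1c, Phlda2 and Nap1l4, and they overlap for Igf2, Slc22a18 and Kcnq1.

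H19 is a spliced, polyadenylated RNA that is transcribed from the maternal copy and restrains growth in the embryo (Entrez 14955, chr7:142575530-142578146, minus strand). R783H A, B and C gave 95, 82 and 76 counts, and WT A, B and C gave 36, 34 and 33. After scaling, this was 3.16, 2.89 and 2.57 CPM against 1.78, 1.39 and 1.55 CPM. All R783H libraries were thus above all WT libraries. H19 rose by 0.88 on the log2 scale (SE 0.17), or 1.84-fold (edgeR, adjusted p 7.91e-04). The short annotated RNAs on the opposite strand Gm27483 and Gm27786 overlap its exons by 71 and 70 bases.

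Igf2 encodes insulin-like growth factor 2, the paternally expressed fetal growth factor of the same cluster (Entrez 16002, chr7:142650768-142666816, minus strand). Its counts were 15, 14 and 24 in R783H and 23, 18 and 24 in WT, or 0.499, 0.493 and 0.810 CPM against 1.14, 0.734 and 1.12 CPM. R783H C lay above WT B, so the groups overlapped. The log2 fold change was -0.71 (SE 0.29, edgeR adjusted p 0.0532), just above the threshold of 0.05. Its side of the threshold was not stable. Igf2 passed in 7 of 15 alternatives, for example at -0.996 without R783H C (edgeR, adjusted p 0.0196), and it did not pass with DESeq2 (adjusted p 0.114). Of the 5723 exon bases of Igf2, 3596 are also annotated to Gm49394, a gene on the same strand. The antisense RNA Igf2os had at most 6 counts in a library, and the row of Mir483, a microRNA within Igf2, had 0. In oligo(dT) selected RNA that row gives no level of the mature microRNA.

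Per kilobase of the longest annotated transcript, H19 exceeded Igf2 in every library. The ratio of H19 to Igf2 on this scale was 13.1, 12.1 and 6.54 in R783H A, B and C and 3.23, 3.90 and 2.84 in WT A, B and C. Every R783H library was above every WT library in this ratio, for which no test was made. Because Igf2 had at most 24 counts in a library, the ratio rests on few reads.

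Kcnq1ot1 is the long, largely unspliced nuclear RNA whose transcription silences its neighbours on the paternal chromosome (Entrez 63830, chr7:143213111-143296547, minus strand). WT A, B and C gave 272, 409 and 489 counts for it, and R783H A, B and C gave 1355, 744 and 1084. In CPM, the WT libraries stood at 13.5, 16.7 and 22.9 and the R783H libraries at 45.1, 26.2 and 36.6. The lowest R783H library, B, was still above the highest WT library, C. The R783H mean of 36.0 ± 9.45 CPM and the WT mean of 17.7 ± 4.81 CPM (SD, n = 3 each) gave a log2 fold change of 1.02 (SE 0.20, edgeR adjusted p 8.92e-04).

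Transcript length moved with this result. Among all tested genes with a length, the longest decile (6690 nt and above) had a median log2 fold change of 0.31 and the shortest decile (up to 1251 nt) one of -0.16. Kcnq1ot1, at 93092 nt, belongs to the longest decile. With an offset for length and GC content its fold change was 0.58, smaller by more than 1.5 times and still called (edgeR, adjusted p 0.00124). The offset was held constant beyond the outer 1% of lengths, so it may correct too little for the very longest transcripts. R783H B also stood apart in this respect: Kcnq1ot1 in B was at 64.2% of the mean of A and C. In the longest decile of genes, the median log2 ratio of B to the mean of A and C was -0.13, and for Kcnq1ot1 it was -0.63. Without R783H B, Kcnq1ot1 was at 1.18 (edgeR, adjusted p 6.36e-07).

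**Figure D2:**
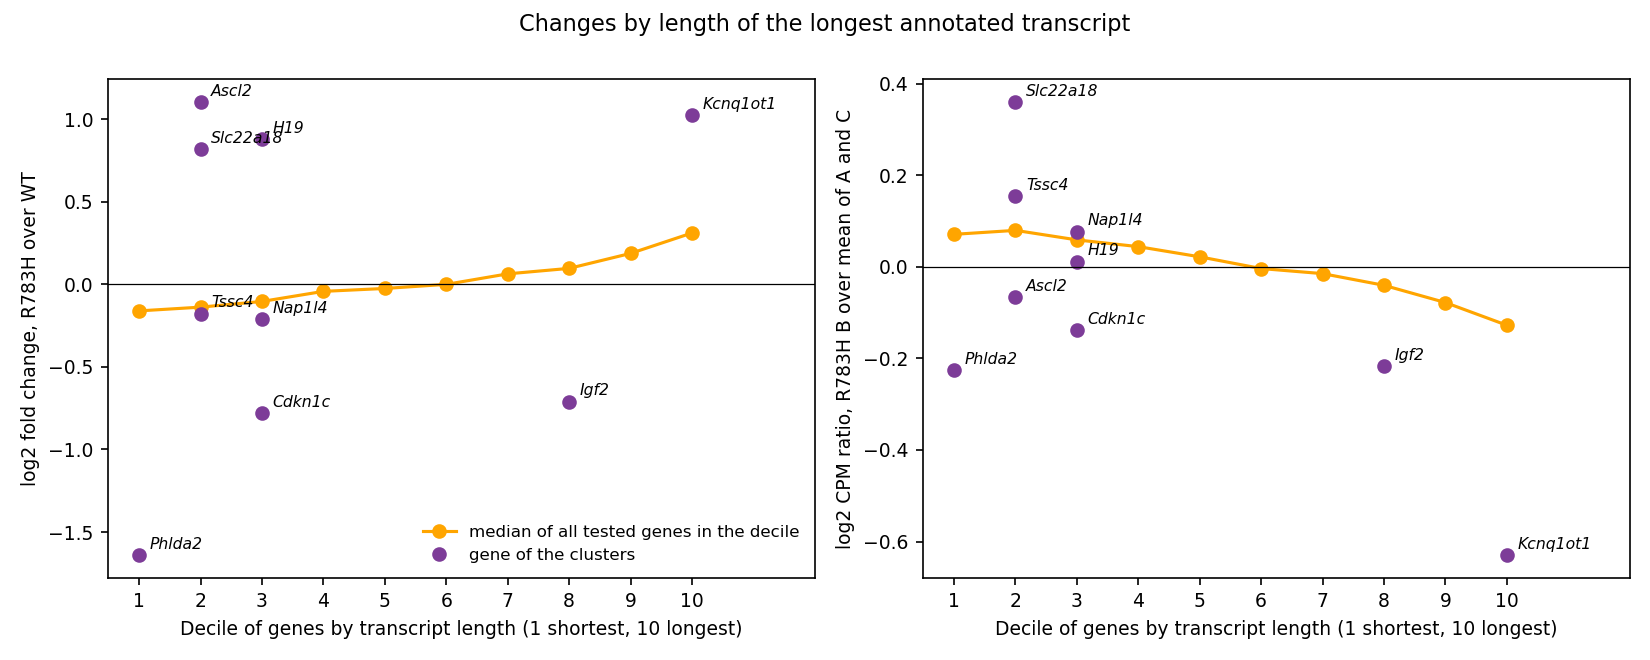
Tested genes split into deciles by the length of the longest annotated transcript, with the median of each decile (line) and the 9 tested cluster genes (labelled points). Left, log2 fold change of R783H over WT: the medians run from -0.16 to 0.31, and Kcnq1ot1 is in the longest decile. Right, log2 ratio of CPM in R783H B to the mean of R783H A and C, with 0.5 CPM added to both: Kcnq1ot1 lies lowest, at -0.63.

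Kcnq1, the gene of a voltage-gated potassium channel of heart and inner ear, runs on the opposite strand of the region that holds Kcnq1ot1 (Entrez 16535, chr7:143106877-143427050, plus strand). It had 1 count in R783H A, 1 in WT A and 0 in the other libraries. These values are under the floor of 3 counts in every library, which corresponds to 0.0998 to 0.149 CPM, so no fold change is given. The 2 genes share 121 annotated exon bases. Whether the authors' counting used strand is not given in the sources used here, but at these counts any reads of Kcnq1ot1 assigned to Kcnq1 were at most 1 in a library.

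Cdkn1c and Phlda2 are the maternally expressed brakes on growth in the Kcnq1ot1 cluster, and both fell. Cdkn1c encodes an inhibitor of cyclin-dependent kinases (Entrez 12577, chr7:143458339-143461059, minus strand). Its counts were 38, 35 and 46 in R783H against 49, 65 and 40 in WT, or 1.26, 1.23 and 1.55 CPM against 2.43, 2.65 and 1.87 CPM. On the scale of CPM the groups did not overlap, whereas the raw counts of R783H C (46) and WT C (40) crossed because the R783H libraries were deeper. Cdkn1c fell by 0.78 on the log2 scale (SE 0.19, edgeR adjusted p 0.00404). An antisense transcript, Gm44732, covers 625 of its 2039 exon bases.

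Phlda2, whose small pleckstrin-homology protein limits placental growth, had the largest change of the 9 tested genes (Entrez 22113, chr7:143501545-143503145, minus strand). R783H A, B and C gave 27, 24 and 37 counts, and WT A, B and C gave 67, 90 and 50. This was 0.898, 0.846 and 1.25 CPM against 3.32, 3.67 and 2.34 CPM. The highest R783H library was below the lowest WT library. Phlda2 fell by 1.64 on the log2 scale (SE 0.22), to 0.321 of its WT level (edgeR, adjusted p 6.86e-05).

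Slc22a18, a maternally expressed gene for a member of the organic cation transporter family, lies between Cdkn1c and Phlda2 (Entrez 18400, chr7:143473726-143499334, plus strand). Its counts were 9, 23 and 22 in R783H and 4, 16 and 3 in WT. WT B, at 0.652 CPM, lay above R783H A, at 0.299 CPM, so the groups overlapped. Its log2 fold change was 0.82 (SE 0.53, edgeR adjusted p 0.198). Without WT B the value was 1.83 and was called (edgeR, adjusted p 0.0270), so WT B decides this value. Without WT C it was 0.46 and was not called, and without WT A it was 0.57, likewise not called.

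Ascl2 encodes a basic helix-loop-helix transcription factor needed for the trophoblast of the placenta (Entrez 17173, chr7:142966822-142969264, minus strand). In R783H it had 84, 72 and 76 counts, close to each other at 2.79, 2.54 and 2.57 CPM. In WT it had 13, 33 and 35 counts, or 0.644, 1.35 and 1.64 CPM, with WT A the lowest. The groups did not overlap. Ascl2 rose by 1.10 on the log2 scale (SE 0.24), or 2.15-fold (edgeR, adjusted p 0.00201).

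Tssc4 and Nap1l4 were the most abundant of the 10 genes per kilobase, and their changes were small. Tssc4 encodes a factor of spliceosome assembly (Entrez 56844, chr7:143068416-143071093, plus strand). It was at 30.7, 33.4 and 29.2 CPM in R783H and 36.9, 33.8 and 34.8 CPM in WT, a difference of -0.18 (SE 0.07, edgeR adjusted p 0.0338). R783H B and WT B lay close together. The call was lost in 7 of 15 alternatives: with scaling by library size alone (-0.10), with the length and GC offset (-0.02), at equal depth (-0.16), and without R783H A (-0.18), R783H C (-0.14), WT A (-0.14) or WT C (-0.19). Nap1l4 encodes a histone chaperone of the nucleosome assembly protein family (Entrez 17955, chr7:143513579-143549882, minus strand). R783H A, B and C stood at 207, 215 and 199.6 CPM and WT A, B and C at 242, 239.7 and 238 CPM, without overlap. Nap1l4 fell by 0.21 on the log2 scale (SE 0.04, edgeR adjusted p 0.00109). With scaling by library size alone it was at -0.13, smaller by more than 1.5 times and still called (edgeR, adjusted p 0.0146).

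H19, Ascl2, Kcnq1ot1, Cdkn1c, Phlda2 and Nap1l4 had the same direction and were called in every alternative. The number of called cluster genes ranged from 6 to 9 over the 15 alternatives. All 9 were called without WT B.

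**Figure D3:**
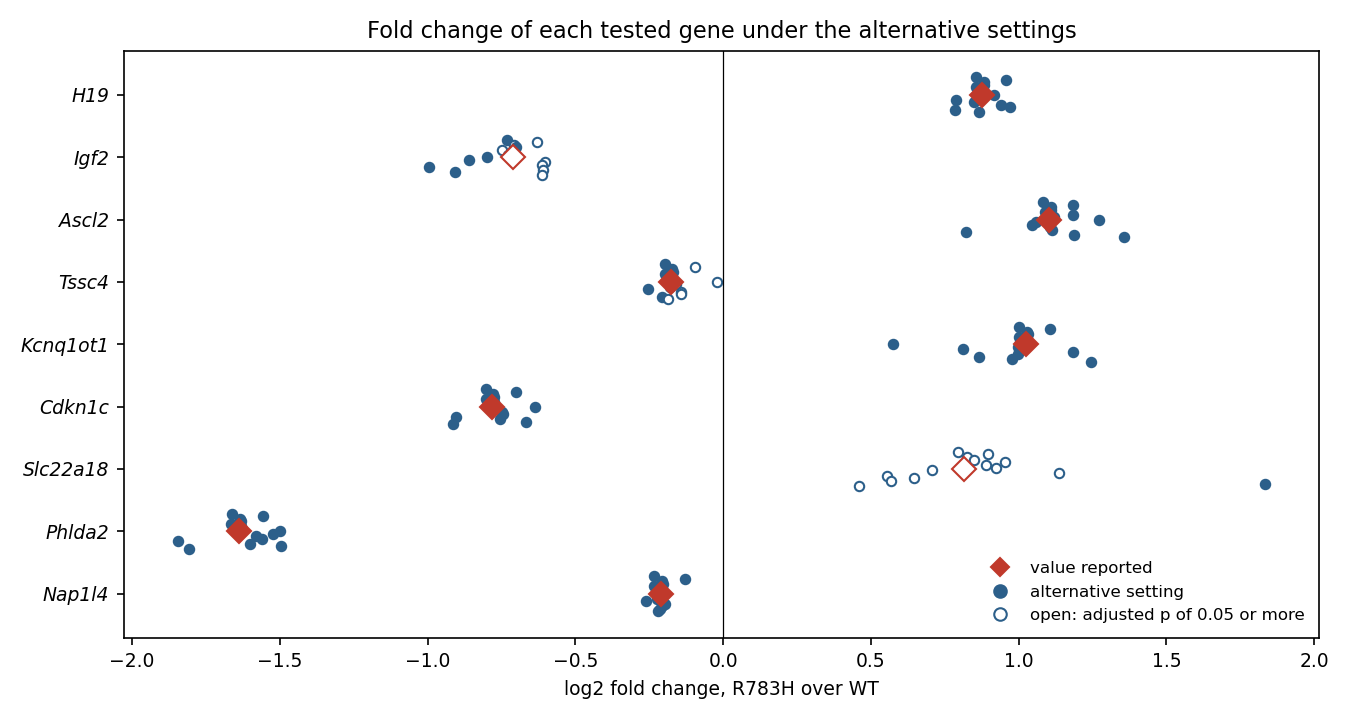
Log2 fold change of R783H over WT for the 9 tested genes, as reported (diamonds) and under each of up to 15 alternative settings (circles). Filled symbols are called at an adjusted p under 0.05 and open ones are not. No gene changed direction, Igf2, Tssc4 and Slc22a18 crossed the threshold, and Kcnq1ot1 was lowest with the length and GC offset, at 0.58.

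Levels were compared between genes per kilobase of the longest annotated transcript. In WT, Nap1l4 was highest at 105 ± 0.758 CPM per kb, followed by Tssc4 at 20.3 ± 0.920, Phlda2 at 4.11 ± 0.907 and Cdkn1c at 1.22 ± 0.210 (SD, n = 3). Next came Ascl2 at 0.754 ± 0.319 and H19 at 0.688 ± 0.0871 CPM per kb. Slc22a18 (0.213 ± 0.181), Igf2 (0.212 ± 0.0487) and Kcnq1ot1 (0.190 ± 0.0516) followed, and Kcnq1 was last. The neighbours Cdkn1c and Ascl2, Ascl2 and H19, Slc22a18 and Igf2, and Igf2 and Kcnq1ot1 overlapped between libraries, so their order is not resolved. In R783H the order from the third place was Ascl2 (1.64 ± 0.0880), Phlda2 (1.32 ± 0.290), H19 (1.26 ± 0.130) and Cdkn1c (0.710 ± 0.0927 CPM per kb). Phlda2 overlapped with both Ascl2 and H19 there. Slc22a18 (0.398 ± 0.179) and Kcnq1ot1 (0.386 ± 0.101) also overlapped, and Igf2, at 0.127 ± 0.0384 CPM per kb, lay below them. If only part of the 93092 nt of Kcnq1ot1 is counted as exon, its level per kilobase is understated.

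Of 22 other genes in and beside the clusters, 9 were tested. Among them, Th passed the filter on low counts through the R783H libraries alone. Where 33.5% of all tested genes were called higher and 30.9% lower, 5 of the other 8 genes rose and 2 fell (median 0.29). The genes that rose were Ctsd, the lysosomal protease cathepsin D (0.25, SE 0.06, and 0.16 without R783H B), Tspan32, a tetraspanin (0.56, SE 0.14), Cd81, another tetraspanin (0.34, SE 0.04), Cars, cysteinyl-tRNA synthetase (0.42, SE 0.05), and Nadsyn1, an enzyme of NAD synthesis (0.66, SE 0.08). The genes Tnfrsf22, a decoy receptor for TRAIL (-0.55, SE 0.08), and Dhcr7, the last enzyme of cholesterol synthesis (-0.28, SE 0.05), fell. Mrpl23, a mitochondrial ribosomal protein gene next to H19, was not called (0.17, SE 0.22, edgeR adjusted p 0.526) and lay at -0.12 without R783H B.

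Th, the gene of tyrosine hydroxylase, lies between the clusters and was read 18, 32 and 23 times in R783H A, B and C but 2, 3 and 2 times in the WT libraries. The counts summed to 73 in R783H and 7 in WT. Relative to the TMM-scaled library sizes, the ratio of these sums was 7.82. Its 95% exact interval of 3.61 to 20.1 covers counting error only. The WT values of Th were at or under the floor of 3 counts, and no fitted fold change is given for it. Syt8, Nctc1, Ins2, Trpm5 and Mrgprg had no count in any library, a set that includes the insulin gene Ins2 next to Igf2 and the ion channel gene Trpm5 next to Tssc4.

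Along the stretch from Ctsd to Dhcr7, 19 of 38 annotated genes in the table were tested, 9 were called higher (Th included) and 6 lower, and 4 were not called. For all tested genes of chromosome 7 the called share was 59.1%, with 28.6% higher, 30.5% lower and a median of 0.01. Both directions occurred among neighbours: Cars, which rose, follows Nap1l4, which fell. Among the genes that were not called, Igf2 (-0.71) lies between H19 and Ascl2, and R74862, named outside the rule, was at -0.34 between Tspan32 and Cd81.

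**Figure D4:**
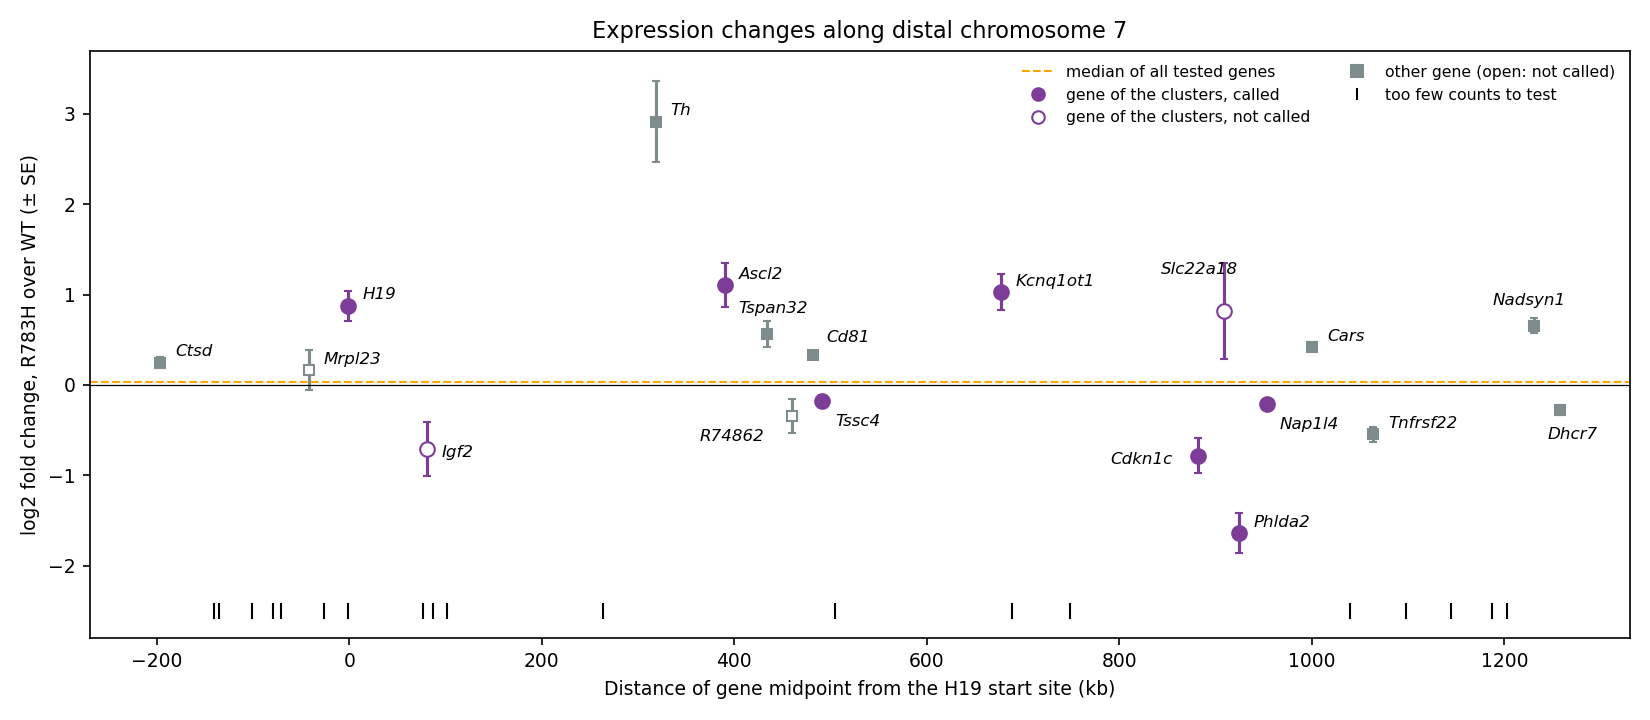
Log2 fold change (± SE) of each tested gene from Ctsd to Dhcr7, placed by the distance of its midpoint from the H19 start site in kb. Circles are the cluster genes and squares the other genes, open symbols were not called, and ticks at the bottom are genes with too few counts to test. The highest point is the fitted value of Th, which rests on 7 WT counts, and Phlda2 is lowest at -1.64.

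Genes that maintain imprints were measured in the same libraries. Among 24 factors for imprint maintenance and chromatin, 23 were tested, and 5 rose, 11 fell and 7 were not called (median -0.10). With the length and GC offset 1 was called higher and 14 lower, and calls over all tested genes moved from 33.5% higher and 30.9% lower to 30.3% and 37.1%. Trim28, the corepressor that ZFP57 recruits to methylated imprinting control regions, was lower by 0.87 on the log2 scale, falling from 3758, 3495 and 3268 CPM in WT A, B and C to 1862, 2039 and 1842 CPM in R783H A, B and C (SE 0.06). Its edgeR adjusted p was 3.98e-07. Ezh2, the histone H3 methyltransferase of Polycomb repressive complex 2 (-0.51, SE 0.05), and Ehmt2, a histone H3 methyltransferase known as G9a that acts in the Kcnq1ot1 cluster of the placenta (-0.46, SE 0.06), also fell. Dppa3, which protects imprints after fertilisation, was called at 0.64 (SE 0.26, edgeR adjusted p 0.0497), and lost its call in 8 of 15 alternatives. Without WT A its value was 0.32.

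Other factors in this list are named here for their known roles in these clusters, outside the rule for naming genes. Ctcf, which binds the H19/Igf2 control region, fell by 0.30 on the log2 scale (SE 0.04). Zfp57, which binds methylated control regions, was at -0.04 (SE 0.05) and was not called. Of the genes for maintenance of DNA methylation, Dnmt1 rose by 0.25 (SE 0.04) and Uhrf1 fell by 0.27 (SE 0.05). Dnmt1 was no longer called higher when transcript length and GC content were offset. The 1 gene of this list called higher in that setting was Dppa3, at 0.72 (edgeR, adjusted p 0.0145). DNA methylation itself was not measured in this series, and the part of these genes in the changes of the clusters was not tested.

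Among 17 genes of the IGF pathway, the receptors, adaptors and binding proteins of IGF2, 14 were tested, and 10 rose and 2 fell (median 0.58). Insr, the insulin receptor that also binds IGF2, rose from 13.7, 12.1 and 14.7 CPM in WT A, B and C to 31.0, 26.2 and 27.3 CPM in R783H A, B and C (1.07, SE 0.09). Igf2r, the receptor that clears IGF2 and is itself maternally expressed, rose from 86.6, 88.2 and 90.3 CPM to 168, 164 and 175 CPM (0.94, SE 0.04). With the length and GC offset Igf2r was at 0.62 and Insr at 0.72, and both were still called. Grb10, an imprinted adaptor that dampens insulin and IGF signalling, rose by 0.98 (SE 0.07). Among the binding proteins, Igfbp5 rose by 1.43 (SE 0.23) and Igfbp3 fell by 1.44 on the log2 scale (SE 0.13). The genes of proteins that bind Igf2 mRNA are named outside the rule. Igf2bp2 rose by 0.78 (SE 0.05) and Igf2bp3 by 0.33 (SE 0.05). Igf2bp1, the most abundant of them, fell (-0.27, SE 0.04), with means of 676 CPM in R783H and 815 CPM in WT.

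Relatives of the cluster genes did not share their directions in every case. Among 19 paralogs 11 were tested, and 4 rose and 3 fell (median 0.09). The called share was 63.6%, close to the 64.5% of all tested genes. Cdkn1b, a kinase inhibitor of the same family as Cdkn1c, rose by 0.59 (SE 0.06), whereas Cdkn1c fell. Phlda3 fell by 0.81 on the log2 scale (SE 0.06), and was at -0.53 with the length and GC offset. Nap1l1, a histone chaperone gene like Nap1l4, fell from 582, 580 and 573 CPM in WT to 361, 338 and 366 CPM in R783H (-0.71, SE 0.04). Slc22a23 rose by 0.96 (SE 0.23).

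A list of 14 imprinted growth genes linked to H19, which holds H19, Igf2 and Cdkn1c themselves, had 12 tested genes, of which 5 were called higher and 4 lower (median 0.04), or 5 and 6 with the length and GC offset. The called share was 75%, where 64.5% of all tested genes were called. Dlk1, called lower, passed the filter on low counts through the WT libraries alone. Meg3, the maternally expressed noncoding RNA of the Dlk1-Dio3 cluster, had the largest change, from 26.9, 25.2 and 26.6 CPM in WT to 123, 86.9 and 120 CPM in R783H (2.07, SE 0.12). R783H B was the lowest R783H library for Meg3, as it was for Kcnq1ot1.

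**Figure D5:**
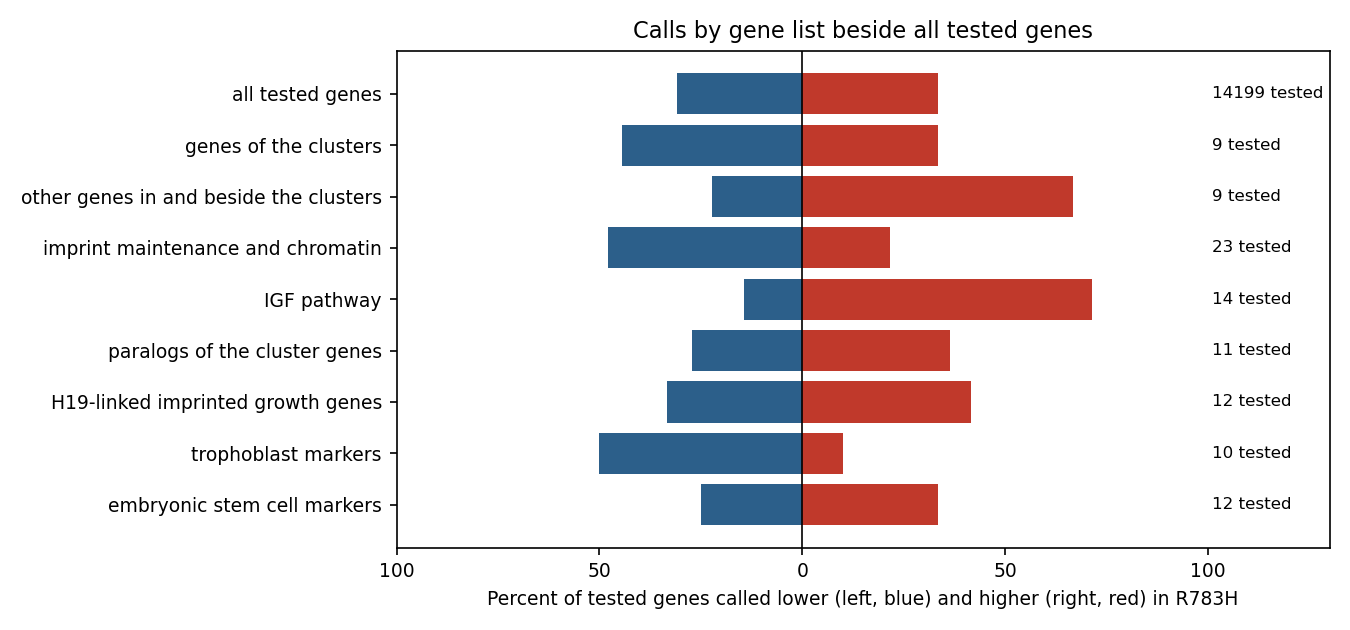
Percent of tested genes called higher (right, red) and lower (left, blue) in R783H for all tested genes, for the 9 tested cluster genes and for several gene lists, with the number tested at the right. All tested genes stand at 33.5% higher and 30.9% lower. The cluster genes had 3 higher and 4 lower calls, and the IGF pathway had 10 higher and 2 lower. The bars include Th, Dlk1 and Irs1.

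Because Ascl2, Phlda2 and Cdkn1c act in the placenta, markers of trophoblast were examined beside them. Of 18 markers 10 were tested, 1 was called higher, 5 lower and 4 were not called, where 30.9% of all tested genes were called lower. Their summed level was 90.0 to 99.8 CPM in R783H and 126 to 127 CPM in WT. Eomes and Tfap2c carried most of this difference. Eomes was at 30.5 to 35.3 CPM in R783H and 44.4 to 48.8 CPM in WT. Tfap2c was at 9.95 to 10.3 CPM in R783H and 22.8 to 25.2 CPM in WT. The defining placental genes Tpbpa, Prl3d1 and Prl2c2 had 0 counts in every library, and Elf5 had at most 2. Cdx2 fell by 1.70 on the log2 scale (SE 0.17), Tfap2c by 1.24 (SE 0.07) and Eomes by 0.49 (SE 0.07), and Gata3 rose by 0.73 (SE 0.18). The part of these markers in the values of Ascl2, Phlda2 and Cdkn1c was not tested.

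The summed level of 12 extraembryonic endoderm markers was 39.5 to 43.6 CPM in R783H and 53.8 to 57.1 CPM in WT, with 2 of 7 tested genes higher, 2 lower, and Afp at 0. Lamb1 (-0.66, SE 0.06) and Col4a1 (-0.68, SE 0.10), which fell, made up most of this sum. Without these genes the other 10 summed to 10.3 to 11.1 CPM in R783H and 5.26 to 7.67 CPM in WT, the opposite direction, and the median of the 7 tested genes was 0.43. Gata4, at 6.17 to 7.19 CPM in R783H and 2.65 to 4.11 CPM in WT, rose (1.08, SE 0.15). The other gene called higher was Sox17, named outside the rule, with 24, 25 and 30 counts in R783H. It had 9, 7 and 8 counts in WT, and the R783H libraries carried it past the filter on low counts. With 10 counts required in every library, 1 gene of this list was called higher. Sox7, also outside the rule and not tested, went the other way. It had 3, 2 and 4 counts in R783H and 15, 9 and 19 in WT. The 8 mesoderm markers summed to 7.82 to 8.46 CPM in R783H and 20.2 to 23.0 CPM in WT. Of 5 tested, 4 were lower, among them T (-1.89, SE 0.10) and Evx1 (-1.74, SE 0.24). T carried most of the difference in the sum, at 3.43 to 3.88 CPM in R783H and 12.4 to 14.5 CPM in WT. Kdr, the receptor for VEGF, was at -0.39 (SE 0.14) and lost its call in 7 of 15 alternatives, and was at -0.60 with the length and GC offset. The 10 fibroblast markers summed to 7.66 to 8.63 CPM in R783H and 5.91 to 6.70 CPM in WT, with 1 of 4 tested genes higher (Twist1, 1.02, SE 0.18) and 1 lower. Twist1 carried this difference: the other 9 summed to 2.18 to 3.19 CPM in R783H and 3.33 to 4.01 CPM in WT. The gene called lower was Thy1, named outside the rule, with 2, 7 and 8 counts in R783H and 25, 34 and 28 in WT, which passed the filter on low counts through the WT libraries alone. All 12 embryonic stem cell markers were abundant, with a sum of 8385 to 8537 CPM in R783H and 8415 to 8500 CPM in WT, 4 higher and 3 lower, or 3 and 4 with the length and GC offset. Among them Fgf4 rose by 0.31 (SE 0.04), Dppa5a rose by 0.30 (SE 0.05), and Zfp42 (-0.36, SE 0.04) and Nanog (-0.23, SE 0.04, and -0.15 with scaling by library size alone) fell. Over all tested genes 33.5% were called higher and 30.9% lower. The part of these lists in the results on the cluster genes was not tested.

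The genes most like H19 over the 6 libraries, by Pearson correlation of log2 CPM, were Gna12 (r = 0.997), Tpd52l1 (r = 0.996) and B3gnt9 (r = 0.996). The 6 libraries share 2 groups and 1 table, and 851 genes (5.99% of those tested) correlated with H19 above 0.95. B3gnt9 also had similar counts, at 95, 75 and 73 in R783H and 35, 33 and 33 in WT, whereas Gna12 was at 0.13 on the log2 scale, a call lost in 10 of 15 alternatives, and Tpd52l1 at 0.43.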

How the data were processed

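The series holds 3 R783H and 3 WT libraries of poly(A) RNA. Per the labels' protocols, Trizol was used for total RNA and Illumina protocols for the libraries. Per the submitters' processing notes, CASAVA 1.4, HISAT2 and SAMtools were used and the build was mm10; the counting tool, annotation and use of strand are not given in the sources used here. The authors deposited raw whole-number counts per Entrez gene without normalization, in a single table with a column per library. Groups and replicate letters came from the sample titles, and 0 columns were left out.

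Symbols came from the RefSeq table of GRCm38.p6 (25275 of 27179 identifiers matched), and transcript lengths, GC content and exon overlaps from GENCODE M21 on GRCm38. BLAST 2.17.0 searched the 10 genes' transcripts for copies with at least 98% identity over 100 nt. The 10 matches were all genes that overlap them on either strand.

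Counts were analysed in R 4.3.3 with edgeR 4.0.16: filterByExpr (minimum count 10, minimum total 15; 14199 genes kept), TMM factors, group as the single term, quasi-likelihood test and Benjamini-Hochberg adjustment over all tested genes. SE is the absolute log2 fold change divided by the square root of F. Depth sets a floor of 3 counts, or 0.0998 to 0.149 CPM; since no molecular identifiers are named, floors and intervals describe counting error alone. Steps were tested on simulated data. Alternatives, 15 in all, were RLE factors, library size alone, no filter, 10 counts in every library, DESeq2 1.42.0, limma-voom (limma 3.58.1), a replicate block, a length and GC offset (splines with 5 df, fitted values held constant beyond the outer 1%), equal depth, and each library left out.

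The genes, lists and tests were chosen with earlier results of these data known. The rule named the 10 genes, Trim71, tested neighbours, the 4 called genes (or fewer) of each further list that changed most among those averaging 50 counts or more in their higher group, and the 3 genes most like H19. The split by abundance, the interval for Th, the marker sums without their leading genes and the check for genes that passed the filter through 1 group were added after the values were seen.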

Additional observations from a re-analysis of the deposited data

How the results depend on the processing

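Of 134 values of the 9 tested cluster genes under the alternatives, 119 kept direction and side of the threshold, 7 lost the call (all Tssc4), 8 gained it (Igf2 in 7, Slc22a18 in 1) and 0 changed direction. For the 42 other genes named by the rule, Th included, 598 of 629 values kept both. Genes named outside the rule are not in this count. Called genes overall ranged from 8161 without WT B to 9882 without R783H B, and were 8341 with DESeq2. Values that changed direction were those of Trim71, at -0.28 with the length and GC offset and between -0.022 and 0.13 with a library left out (0.03 as reported), and Mrpl23, which ran from -0.12 without R783H B to 0.27 without R783H A. Called fibroblast markers fell from 2 to 1 when 10 counts were required in every library. Igf2, Slc22a18 and Kcnq1 had at most 24 counts in a library. At equal depth, reached by a single random thinning of the counts, Igf2 was at -0.86 and was called.

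The labels do not say that replicate letters mark shared cultures. Deviations from the group means correlated at -0.070, 0.0068 and 0.085 for the same letters, so the letters were not taken as pairs. With the replicate block, 9260 genes and 8 of the cluster genes were called, the added gene being Igf2 (-0.73, adjusted p 0.0376 by edgeR's quasi-likelihood test).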
